A study of Mus musculus with 9 samples.

Results

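The genes described here are 7 mouse counterparts of familial or risk genes of Parkinson disease: Pink1, Park7, Fbxo7, Uchl1, Lrrk2, Vps35 and Atp13a2. They were chosen by name, with earlier results of these data known, and are 7 of the 47729 gene rows in the count files. All 7 passed the filter on low counts that left 17671 genes for testing. The question was whether their RNA levels in the adult mouse midbrain differed between 3 genotypes of Dot1l, which encodes a methyltransferase of histone H3 found on the bodies of transcribed genes.

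RNA-seq libraries were made with a directional kit from total RNA of midbrain dissected at 180 days of age. Every mouse was on the C57/Bl6 background and carried Pitx3-Cre/+ together with the Rosa-lox-stop-lox-Yfp reporter, so the controls carried Cre as well. The genotypes were Dot1l(+/+), Dot1l(fl/+), with 1 conditional allele, and Dot1l(fl/fl), in which both alleles were conditional, and each was measured in 3 libraries made from pools of 3 mice. Pitx3 drives Cre in post-mitotic dopamine neurons of the midbrain, whereas the dissected tissue also contained cells without Cre.

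These genes fall into a few cellular pathways. Pink1 is a kinase that accumulates on damaged mitochondria and marks them, through phosphorylated ubiquitin, for removal by autophagy, a process called mitophagy. Park7, also called DJ-1, is a redox-sensitive protein that protects against oxidative stress, and Fbxo7 is the substrate-binding subunit of an SCF ubiquitin ligase that also binds the proteasome. Uchl1 is an abundant neuronal ubiquitin hydrolase. The remaining members act on endosomes and lysosomes: Lrrk2 is a kinase of Rab GTPases, Vps35 is the core subunit of the retromer, which returns cargo from endosomes, and Atp13a2 is a lysosomal ATPase that exports polyamines. The neurons that die in the disease are the dopamine neurons of the substantia nigra.

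The libraries held between 16422135 and 28403218 counts. Dot1l itself was counted at 85.17, 80.21 and 85.13 CPM (read counts scaled to the size of the library, with TMM factors) in the Dot1l(+/+) libraries, at 84.22, 60.59 and 75.63 CPM in Dot1l(fl/+), and at 82.13, 73.94 and 82.85 CPM in Dot1l(fl/fl). The genotypes overlapped, and Dot1l did not pass the test in Dot1l(fl/+) (log2 fold change -0.19 ± 0.094 SE, edgeR adjusted p = 0.62) or in Dot1l(fl/fl) (-0.069 ± 0.094, edgeR adjusted p = 0.999). These counts cover all exons and all cells of the dissection, so they check the deletion in dopamine neurons only weakly. The labels name the tissue as midbrain dopamine neurons, yet the 8 oligodendrocyte markers summed to 10390 to 11890 CPM and the 12 dopamine neuron markers to 593.7 to 842.3 CPM. No gene of the 17671 passed an adjusted p of 0.05 in any of the 3 comparisons with edgeR, while 8.39%, 3.93% and 6.48% had an unadjusted p under 0.05 in Dot1l(fl/+) against Dot1l(+/+), in Dot1l(fl/fl) against Dot1l(+/+) and in Dot1l(fl/fl) against Dot1l(fl/+). DESeq2 on all 9 libraries called 7, 4 and 12 genes, and none of the 7 members was among them.

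The members lie on 5 chromosomes of GRCm38, and 3 of them share chromosome 4. Pink1 (ENSMUSG00000028756) spans chr4:138313409-138326307 on the minus strand, Park7 (ENSMUSG00000028964) spans chr4:150897133-150914437 on the minus strand, and Atp13a2 (ENSMUSG00000036622) spans chr4:140986873-141007330 on the plus strand. Lrrk2 (ENSMUSG00000036273) is at chr15:91673175-91816120 on the plus strand and Vps35 (ENSMUSG00000031696) at chr8:85260392-85299802 on the minus strand. Uchl1 (ENSMUSG00000029223) is at chr5:66676091-66687234 and Fbxo7 (ENSMUSG00000001786) at chr10:86021972-86051873, both on the plus strand. Vps35, Uchl1 and Fbxo7 share exon bases with a gene on the opposite strand. Vps35 shares 171 exon bases with Orc6, which had 3553 counts over the 9 libraries against 49493 for Vps35, whereas the antisense partners of Uchl1 and Fbxo7 had 41 and 106 counts. The strand setting of the counting is not given in the sources used here.

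The start regions of Pink1, Park7 and Fbxo7 carry a letter pattern in common. RefSeq start windows (GRCm38.p6) matched 6 of the 7 members, all but Vps35. In the 250 bases before the start, the palindromic binding motif of NRF1, a regulator of nuclear genes for mitochondrial proteins, was searched on both strands, with any base allowed at 1 central position. It was found in the windows of Pink1, Park7 and Fbxo7, and in 3.7% of all 32851 windows or 6.9% of the 15605 windows of genes tested here. The 30-base stretches around it are shown because they are the stretches in which these 3 start regions match, with the motif in capitals and written 5′ to 3′ on the strand of the gene.
Park7, chr4:150910030-150910059: aggggcaattGCGCAGGCGCccgcagggtg
Pink1, chr4:138326287-138326316: accgccccccGCGCTTGCGCacaggcgccg
Fbxo7, chr10:86021793-86021822: agcaaacccaGCGCCTGCGCcgtgcgcgcc
Fbxo7, chr10:86021858-86021887: cgatagggaaGCGCAGGCGCtcggccctcc
The motif began 128 bases before the start of Park7 and 10 bases before that of Pink1, counted from the RefSeq starts, which lie inside the spans of both genes given above. For Fbxo7, which has more than 1 listed start, both copies lay in the more upstream window, 126 and 61 bases before its start, in a stretch that is also exon of its antisense partner.

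The whole upstream windows of Pink1 and Park7 are shown because these 2 genes were the most closely correlated pair of members. Both are on the minus strand of chromosome 4 (GRCm38.p6), and the NRF1 motif is again in capitals.
Pink1, chr4:138326297-138326546: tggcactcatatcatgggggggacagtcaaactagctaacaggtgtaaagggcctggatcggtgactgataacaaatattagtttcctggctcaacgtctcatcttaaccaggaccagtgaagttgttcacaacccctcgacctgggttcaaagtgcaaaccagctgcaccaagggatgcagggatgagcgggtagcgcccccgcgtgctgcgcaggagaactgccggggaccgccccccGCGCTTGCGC
Park7, chr4:150909922-150910171: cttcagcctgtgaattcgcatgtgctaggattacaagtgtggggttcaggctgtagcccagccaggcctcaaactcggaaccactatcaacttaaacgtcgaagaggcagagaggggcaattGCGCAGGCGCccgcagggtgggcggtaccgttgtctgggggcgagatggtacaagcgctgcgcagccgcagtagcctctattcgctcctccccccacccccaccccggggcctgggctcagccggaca
The Pink1 window held 57.2% G and C and the Park7 window 62.4%, against a median of 52.4% over all windows. The GC box GGGCGG, searched on both strands, was in the windows of Pink1, Park7, Lrrk2 and Atp13a2 and in 32.7% of all windows or 54.6% of those of genes tested here. The E-box CACGTG (6% of windows), the ETS motif CCGGAAG (6.9%), the cAMP response element TGACGTCA (1.5%) and the antioxidant response element TGACNNNGC (10.2%) were in none of the 6 members' windows. These matches describe letters only.

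Uchl1 and Pink1 were the most abundant members per length of transcript and Lrrk2 the least. In Dot1l(+/+) midbrain Uchl1 stood at 258.2 ± 27.8 RPKM (CPM per kilobase of exon; SD, n = 3), Pink1 at 102.6 ± 2.15, Park7 at 32.2 ± 1.34, Atp13a2 at 30.7 ± 1.24, Vps35 at 24.96 ± 0.276, Fbxo7 at 5.46 ± 0.103 and Lrrk2 at 2.88 ± 0.128. The same order of mean RPKM was found in all 3 genotypes. The ranges of neighbours in that order did not overlap within a genotype, with the exception of Park7 and Atp13a2, which overlapped in Dot1l(+/+), at 31.01 to 33.65 against 29.24 to 31.46 RPKM, and in Dot1l(fl/fl), at 29.92 to 35.43 against 27.8 to 31.2 RPKM. By this per-length level Pink1 stood above 98.9% of the genes tested and Lrrk2 above 40.6% of them. Counts ran from 540 for Fbxo7 in the shallowest library to 13236 for Uchl1, so the counting error of a single value lay between 0.869% and 4.3%. This was below the 5.4% to 6.95% by which edgeR estimated the members to vary between libraries of a genotype. The spread seen could be smaller than that estimate. For Fbxo7 the SD was 1.875%, 3.01% and 3.26% of the mean in Dot1l(+/+), Dot1l(fl/+) and Dot1l(fl/fl). Its counting error was 3.16% to 4.3%.

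Pink1 was the member with the clearest separation of Dot1l(fl/+) from Dot1l(+/+). It stood at 268.9, 280.3 and 273.4 CPM in the Dot1l(+/+) libraries, at 283.1, 312.8 and 318.1 CPM in Dot1l(fl/+), and at 265.5, 288 and 245 CPM in Dot1l(fl/fl), each in the order of replicates 1 to 3. All 3 Dot1l(fl/+) libraries lay above the 3 controls, although replicate 1 exceeded the highest control only narrowly, and the Dot1l(fl/fl) libraries lay on both sides of the controls. The level in Dot1l(fl/+) was 11.1% higher than in Dot1l(+/+), a log2 fold change of 0.15 ± 0.064 SE (95% interval 0.014 to 0.29) with an unadjusted p under 0.05 that did not pass adjustment (edgeR adjusted p = 0.568). Between Dot1l(fl/fl) and Dot1l(fl/+) the log2 fold change was -0.19 ± 0.064 (95% interval -0.33 to -0.056, unadjusted p under 0.05, edgeR adjusted p = 0.708), with replicate 2 of Dot1l(fl/fl) above replicate 1 of Dot1l(fl/+). Against Dot1l(+/+), Dot1l(fl/fl) gave -0.042 with a 95% interval of -0.18 to 0.096 (edgeR adjusted p = 0.999).

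Park7 showed a similar pattern with more overlap. Its levels were 79.21, 83.43 and 76.87 CPM in Dot1l(+/+), 78.89, 91.4 and 91.35 CPM in Dot1l(fl/+), and 74.17, 87.82 and 77.76 CPM in Dot1l(fl/fl). Replicates 2 and 3 of Dot1l(fl/+) lay above every control, while replicate 1 lay among them. The mean was 9.28% higher in Dot1l(fl/+) than in Dot1l(+/+) (log2 fold change 0.13 ± 0.073, edgeR adjusted p = 0.664). Leaving out 1 library gave 0.093 to 0.195, the highest without replicate 1 of Dot1l(fl/+) (unadjusted p under 0.05, edgeR adjusted p = 0.295). In Dot1l(fl/fl) the difference from Dot1l(+/+) was 0.0024 ± 0.074 (edgeR adjusted p = 0.999), and the 95% interval of -0.16 to 0.16 leaves room for changes of that size in either direction.

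Fbxo7 varied little. It was measured at 33.72, 34.44 and 33.17 CPM in Dot1l(+/+), at 34.04, 35.47 and 33.46 CPM in Dot1l(fl/+), and at 31.71, 33.85 and 32.75 CPM in Dot1l(fl/fl). The groups overlapped, and the log2 fold changes of 0.024 (95% interval -0.11 to 0.16) in Dot1l(fl/+) and -0.043 (-0.18 to 0.09) in Dot1l(fl/fl) against Dot1l(+/+) did not pass the test with edgeR (adjusted p = 0.942 and 0.999).

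**Figure D1:**
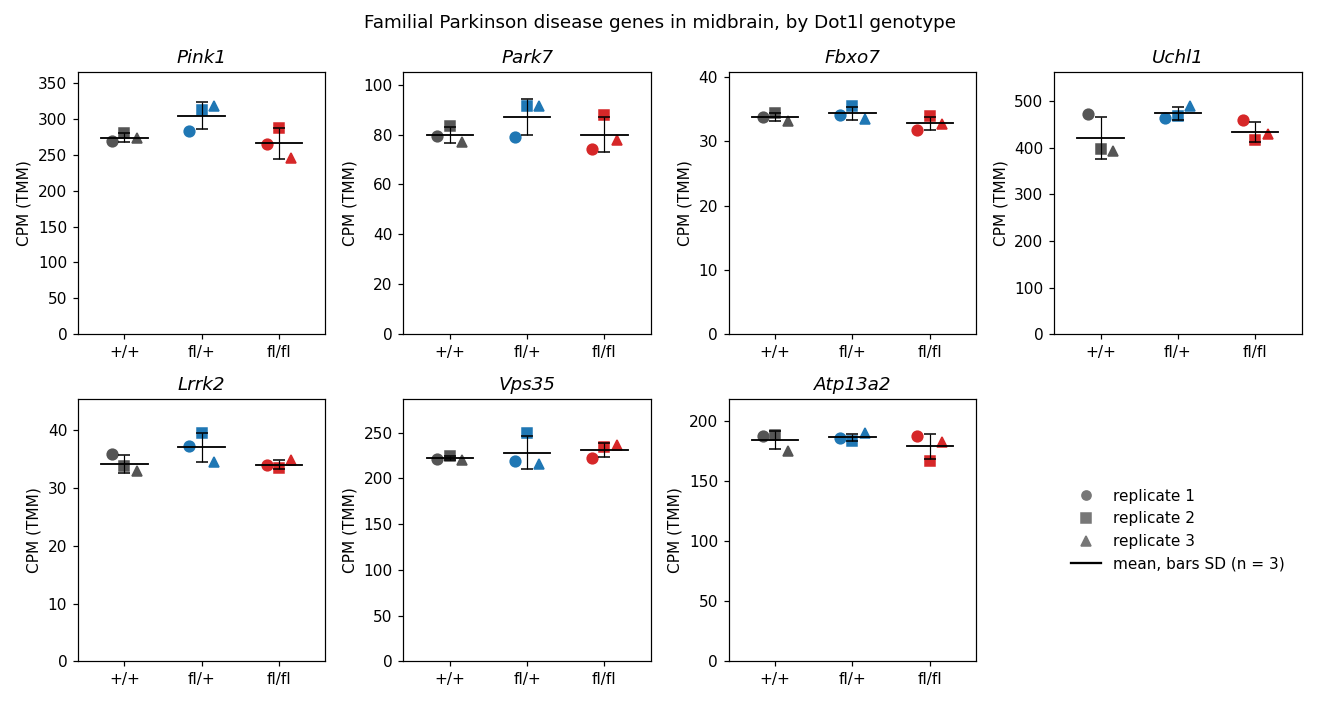
TMM-scaled CPM (vertical axis, starting at 0) of each member in the 9 midbrain libraries, by Dot1l genotype. Symbols are libraries, horizontal lines are means and bars are SD (n = 3). Pink1 lay above all 3 controls in the 3 Dot1l(fl/+) libraries, and Uchl1 replicate 1 of Dot1l(+/+) stood at 473.6 CPM, apart from the other controls.

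For Uchl1, replicate 1 of the controls stood apart from the other 2. The gene was counted at 473.6, 397.6 and 392.8 CPM in Dot1l(+/+), at 464.1, 467.6 and 489.7 CPM in Dot1l(fl/+), and at 458.8, 417 and 429 CPM in Dot1l(fl/fl). The first control lay within the range of Dot1l(fl/+), the other 2 controls lay below every library of both floxed genotypes, and all 3 Dot1l(fl/fl) libraries lay below the 3 Dot1l(fl/+) libraries. The mean of Dot1l(fl/+) was 12.5% above that of Dot1l(+/+) (log2 fold change 0.17 ± 0.07, 95% interval 0.018 to 0.32, unadjusted p under 0.05, edgeR adjusted p = 0.559). Without the first control the log2 fold change was 0.26 (unadjusted p under 0.05, edgeR adjusted p = 0.694). Without the second or the third control it was 0.14 or 0.12, with an unadjusted p above 0.05 (edgeR adjusted p = 0.765 and 0.867). Dot1l(fl/fl) against Dot1l(+/+) gave 0.046 ± 0.07 with all libraries and 0.14 without the first control (unadjusted p under 0.05, edgeR adjusted p = 0.9998). Against Dot1l(fl/+) it gave -0.12 ± 0.07 (edgeR adjusted p = 0.79).

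Among the members of endosomes and lysosomes, Lrrk2 had the widest difference in Dot1l(fl/+), before the length and GC adjustment described below. Its levels were 35.8, 33.75 and 32.84 CPM in Dot1l(+/+), 37.29, 39.43 and 34.42 CPM in Dot1l(fl/+), and 33.87, 33.41 and 34.82 CPM in Dot1l(fl/fl). In Dot1l(fl/+), replicates 1 and 2 lay above all controls and replicate 3 between them. This gave 8.63% more in Dot1l(fl/+) than in Dot1l(+/+) (log2 fold change 0.12 ± 0.068, edgeR adjusted p = 0.662), and Dot1l(fl/fl) gave -0.0042 ± 0.069 (edgeR adjusted p = 0.999). Without replicate 2 of Dot1l(fl/+) the first value was 0.072 (edgeR adjusted p = 0.771).

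Vps35 was the steadiest member among the controls. It stood at 220.8, 225 and 220.6 CPM in Dot1l(+/+), at 219, 249.3 and 216.2 CPM in Dot1l(fl/+), and at 222.6, 234.2 and 237 CPM in Dot1l(fl/fl). One Dot1l(fl/+) library, replicate 2, lay above all others, and the other 2 lay below every control. Over all genes this library also stood apart from its 2 partners, with a chi-square per degree of freedom of 15.2 and 16.5 against 4.47 to 8.26 in the other pairs of replicates. Against Dot1l(+/+), Dot1l(fl/+) therefore gave a log2 fold change of 0.039 ± 0.058 with all libraries and -0.03 without replicate 2, with edgeR adjusted p of 0.891 and 0.875. In Dot1l(fl/fl) it was 0.058 ± 0.058 (edgeR adjusted p = 0.999), the highest of the 7 members in that comparison. Its neighbour Orc6, which shares exon bases on the other strand, gave -0.0023 and -0.048.

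Atp13a2 was level across the genotypes. The values were 187.9, 188.8 and 175.5 CPM in Dot1l(+/+), 185.5, 183.7 and 189.8 CPM in Dot1l(fl/+), and 187.2, 166.8 and 182.7 CPM in Dot1l(fl/fl). The lowest library was replicate 2 of Dot1l(fl/fl), and the groups overlapped. The log2 fold changes against Dot1l(+/+) were 0.018 (95% interval -0.097 to 0.13) in Dot1l(fl/+) and -0.041 (-0.16 to 0.075) in Dot1l(fl/fl), with edgeR adjusted p of 0.95 and 0.999. Part of its exon sequence, in stretches of 50 bases, also occurs in 166 other annotated genes, at most 41 such stretches with any of them, so a small share of its reads may not be unique to it. Vps35 shared such stretches with 21 other genes, at most 22 with any of them, and Park7 with 13, at most 6.

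Set side by side, all 7 members were higher in Dot1l(fl/+) than in Dot1l(+/+), by a median log2 fold change of 0.12 and a range of 0.018 to 0.17, whereas 48.9% of all genes tested were higher and their median was -0.0034. Without replicate 3 of Dot1l(+/+), 6 of the 7 were higher, and without replicate 2 of Dot1l(fl/+), 5 of the 7 were, with medians of 0.094 and 0.0719. Pink1 and Uchl1 had an unadjusted p under 0.05 and were higher, where 4.3% of all genes were, and 1 of the 7, Pink1, did not overlap between these groups, where 13.3% of all genes did not and 6.84% did so on the higher side. Dot1l(fl/fl) against Dot1l(+/+) had 3 members higher and 4 below 0, where 50.4% of all genes were higher, and their median was -0.0042 (0.0009 over all genes). There 0 of 7 had an unadjusted p under 0.05 with edgeR (3.93% of all genes) or DESeq2 (2.55%), and 0 of 7 were without overlap, where 10.3% of all genes were. Dot1l(fl/fl) against Dot1l(fl/+), which shares the Dot1l(fl/+) libraries with the first comparison, had 1 member higher and 6 below 0, where 50.5% of all genes were higher, with a median of -0.12 (0.0015 over all genes). Uchl1 was the 1 member without overlap, where 11.1% of all genes were and 5.14% on the lower side. Pink1 was the 1 member with an unadjusted p under 0.05, where 2.87% of all genes were lower at that level.

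**Figure D2:**
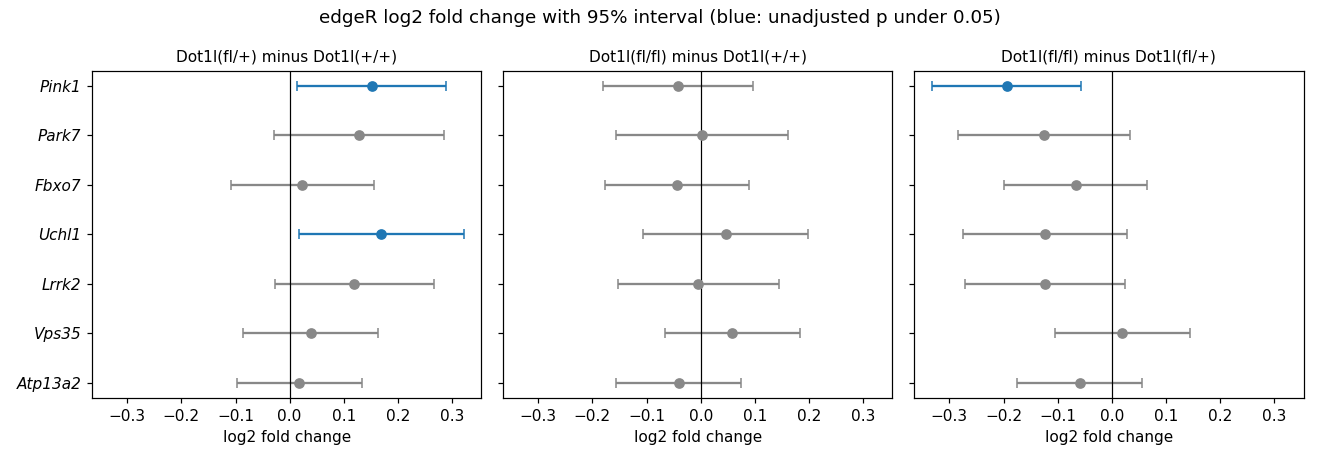
Log2 fold change (horizontal axis) of each member in the 3 genotype comparisons, from edgeR over all 9 libraries, with 95% intervals. Blue marks an unadjusted p under 0.05, which Pink1 and Uchl1 had in the first panel and Pink1 in the third, while no adjusted p passed 0.05.

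How the Dot1l(fl/+) difference was shared among members moved with the treatment of transcript length and GC content, which were adjusted together. Over all genes, the median log2 fold change of Dot1l(fl/+) against Dot1l(+/+) went from 0.0796 in the class of shortest genes (57 to 1961 exon bases) to -0.0437 in the class of longest genes (7065 bases and more). Uchl1, with 1632 exon bases, belongs to the first class, Park7 (2479) and Pink1 (2673) to the second, Atp13a2 (6000) and Fbxo7 (6180) to the fourth, and Vps35 (8899) and Lrrk2 (11834) to the last. With an offset that removes each library's trend with length and GC content, all 7 members were again higher, but Pink1 gave 0.11 and Uchl1 0.099 (edgeR adjusted p = 0.745 and 0.794), and the members with an unadjusted p under 0.05 were Vps35 at 0.17 and Lrrk2 at 0.17, with an edgeR adjusted p of 0.707 for both. The Pink1 difference between Dot1l(fl/fl) and Dot1l(fl/+) was -0.14 (unadjusted p under 0.05, edgeR adjusted p = 0.834) with this offset.

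**Figure D3:**
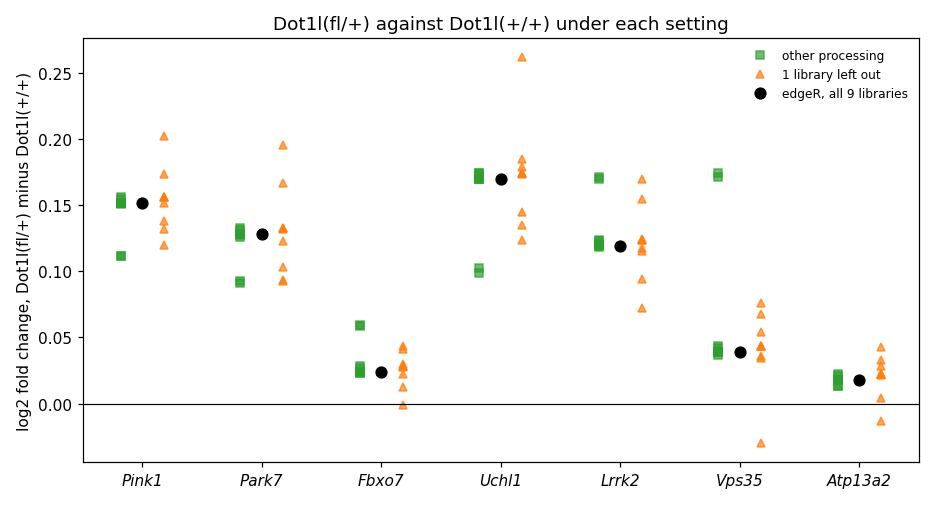
Log2 fold change of Dot1l(fl/+) against Dot1l(+/+) (vertical axis) for each member, with all 9 libraries in edgeR (black), under 9 other processing choices (green) and with 1 library left out (orange). Vps35 was the member most moved by processing, reaching 0.17 with the length and GC offset, and Vps35, Atp13a2 and Fbxo7 each took a value below 0 without 1 of the libraries.

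Markers of other cells were also compared between the genotypes. The 4 choroid plexus markers summed to 57.2 to 142.7 CPM in Dot1l(+/+), to 104.1, 167.1 and 568.5 CPM in Dot1l(fl/+), and to 29.9 to 38.1 CPM in Dot1l(fl/fl). All 4 were higher in Dot1l(fl/+) than in Dot1l(+/+) at an unadjusted p under 0.05, where 4.3% of all genes were. The highest value was that of Dot1l(fl/+) replicate 3, which was also the highest library for Pink1, Uchl1 and Atp13a2. Without it, all 7 members remained higher in Dot1l(fl/+), Pink1 gave 0.12 (edgeR adjusted p = 0.852) and Uchl1 0.15 (edgeR adjusted p = 0.849), while Lrrk2 gave 0.17 (unadjusted p under 0.05, edgeR adjusted p = 0.849). Of the 8 oligodendrocyte markers, 3 were higher in Dot1l(fl/+) at an unadjusted p under 0.05, where 4.3% of all genes were, and 4 were lower at that level in Dot1l(fl/fl) against Dot1l(fl/+), where 2.87% of all genes were. The summed level ranged from 10390 to 11430 CPM in Dot1l(+/+) and from 10520 to 11890 CPM in Dot1l(fl/+). Of the 5 thalamus and hypothalamus markers tested, 2 were higher and 1 lower in Dot1l(fl/+) at an unadjusted p under 0.05. Over all genes these shares were 4.3% and 4.09%. The summed level of the list ranged from 479.8 to 575.3 CPM in Dot1l(+/+) and from 445.2 to 628.2 CPM in Dot1l(fl/+). Among these markers Pmch, a hypothalamic peptide hormone gene named here after its values were seen, gave a log2 fold change of 4.21 (edgeR adjusted p = 0.541). All 7 immediate early genes, which respond to neuronal activity, were higher in Dot1l(fl/+), where 48.9% of all genes were, with a median of 0.14. Of them, 0 had an unadjusted p under 0.05, where 4.3% of all genes were higher at that level. They summed to 184.3 to 200.2 CPM in Dot1l(+/+) and 123.3 to 311.4 CPM in Dot1l(fl/+). On the other side, the 8 pan-neuronal markers, 4 above and 4 below 0, summed to 4076 to 4124 CPM in Dot1l(+/+), 3899 to 4015 CPM in Dot1l(fl/+), without overlap, and 3907 to 4160 CPM in Dot1l(fl/fl). All 5 blood markers were lower in Dot1l(fl/+), where 48.9% of all genes were higher. An unadjusted p under 0.05 was found for 1 of the 5, where 4.09% of all genes were lower at that level. Their summed levels were 99.37 to 280.2 CPM in Dot1l(+/+) and 107.8 to 172.2 CPM in Dot1l(fl/+). The part of these cells and genes in the members' values was not tested.

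The dopamine neurons themselves gave a different picture from the members. The 12 dopamine neuron markers summed to 752 to 842.3 CPM in Dot1l(+/+), 608.3 to 756.5 CPM in Dot1l(fl/+) and 593.7 to 623.3 CPM in Dot1l(fl/fl). In Dot1l(fl/+), 11 of the 12 were lower than in Dot1l(+/+), 4 of them at an unadjusted p under 0.05, where 4.09% of all genes were. All 12 were lower in Dot1l(fl/fl) than in Dot1l(+/+), 10 of them at an unadjusted p under 0.05, where 1.72% of all genes were lower at that level. Th, the rate-limiting enzyme of dopamine synthesis, gave a log2 fold change of -0.71 ± 0.12 (edgeR adjusted p = 0.248) and Slc6a3, the dopamine transporter, -0.68 ± 0.093 (edgeR adjusted p = 0.0906) in Dot1l(fl/fl). The 7 members lay between -0.043 and 0.058 in the same libraries. In dissected tissue, fewer cells of a type and less RNA per cell cannot be told apart, and a change within dopamine neurons in a gene that other cells also express is diluted by those cells.

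Pink1 and Park7 had the highest correlation of the 21 pairs of members across the 9 libraries. Pearson's r of their log2 CPM was 0.85 (exact permutation p = 0.0025, two-sided, adjusted over 21 pairs 0.0525) and Spearman's rho 0.833 (exact permutation p = 0.00827, adjusted 0.174), so the relation did not pass adjustment. The permutations took the 9 libraries as interchangeable across genotypes, so these p do not separate shared genotype differences from covariation within a genotype. Without the 2 libraries farthest from the median of Park7, r was 0.593, and with the genotype means removed it was 0.807. Park7 and Fbxo7 followed with r of 0.701 (exact permutation p = 0.03, adjusted 0.315) and rho of 0.733 (exact permutation p = 0.0311, adjusted 0.218), r being 0.737 without the same 2 libraries and 0.669 with the genotype means removed. Pink1 and Fbxo7 gave r of 0.613 (exact permutation p = 0.0756, adjusted 0.373) and rho of 0.633 (exact permutation p = 0.076, adjusted 0.399), r being 0.833 without the 2 libraries farthest for Pink1 and 0.354 with the genotype means removed. Lrrk2 and Fbxo7 had nearly the same r, at 0.609 (exact permutation p = 0.0887, adjusted 0.373), with a lower rho of 0.367 (exact permutation p = 0.336, adjusted 0.822), r being 0.0228 without the 2 libraries farthest for Lrrk2. Uchl1 had its highest r among members with Lrrk2, at 0.6 (exact permutation p = 0.0846, adjusted 0.373), with rho of 0.733 (exact permutation p = 0.0311, adjusted 0.218) and r of 0.693 without the 2 libraries farthest for Lrrk2, and 0.288 with the genotype means removed. The order of pairs changed when the means were removed, with Vps35 and Fbxo7 at 0.801 and Lrrk2 and Vps35 at 0.659. Across all 9 libraries, with the means kept, these pairs gave r of 0.436 and 0.466. Without the 2 libraries farthest from the median of the first gene, these r were 0.154 and -0.036. The values with the means removed were not computed without those libraries.

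Among all genes tested, the closest patterns over the 9 libraries came from genes outside the group. For Pink1 they included Snrpc, which encodes a spliceosomal protein (Pearson's r = 0.964). Park7 was closest to Epsti1 (0.98) and to Camk1g, a calmodulin-dependent kinase (0.975). Fbxo7 was closest to Ccdc149 (0.95) and Rngtt, the mRNA capping enzyme (0.932). For Uchl1 the closest were Mapk8ip1, a JNK scaffold protein (0.977), and Atp9a, a phospholipid flippase (0.949). Lrrk2 was closest to Rsph3b (0.928) and Cetn4 (0.927), both genes of cilia or centrioles, Vps35 to C1d (0.97) and Gm15721 (0.97), and Atp13a2 to the potassium channel gene Kcnh2 (0.933). These values are among the highest of 17671 over 9 libraries that share their depth and composition, and they are given as a description.

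Genes of the pathways around the members were counted from lists. For mitophagy, 33 partners of Pink1 were tested, and 2 were higher in Dot1l(fl/+) at an unadjusted p under 0.05 (4.3% of all genes were) and 0 lower (4.09% of all genes were), with a list median of 0.021. Tomm7, a subunit of the outer-membrane translocase that stabilises Pink1, was at 12.1 ± 1.12 CPM in Dot1l(+/+) and 19.1 ± 2.55 CPM in Dot1l(fl/+) (log2 fold change 0.66 ± 0.2, edgeR adjusted p = 0.541), and at 16.6 ± 6.35 CPM in Dot1l(fl/fl). Fis1, a mitochondrial fission factor, gave 0.17 (edgeR adjusted p = 0.569). The fission GTPase Dnm1l and the translocase pore Tomm40 were named by Dot1l(fl/fl) against Dot1l(fl/+), with log2 fold changes of 0.13 and -0.13 (edgeR adjusted p = 0.733 and 0.734). Tomm7 was also the 1 gene of the 33 with an unadjusted p under 0.05 in Dot1l(fl/fl) against Dot1l(+/+) (0.47, edgeR adjusted p = 0.999).

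Of 24 antioxidant and glyoxalase genes that work beside Park7, 20 were higher in Dot1l(fl/+), where 48.9% of all genes were. An unadjusted p under 0.05 was found for 3 on the higher side (4.3% of all genes) and 1 on the lower side (4.09%). The list median was 0.098, and 0.104 with the length and GC offset. Superoxide dismutase Sod1 was at 37.2 ± 0.824 CPM in Dot1l(+/+) and 43.9 ± 3.34 CPM in Dot1l(fl/+) (0.24 ± 0.08, edgeR adjusted p = 0.541), and the groups did not overlap. The peroxiredoxins Prdx2 and Prdx5 gave 0.16 and 0.17 (edgeR adjusted p = 0.541 and 0.568), and Gclm, the modifier subunit of the first enzyme of glutathione synthesis, gave -0.11 (edgeR adjusted p = 0.55). In Dot1l(fl/fl) against Dot1l(+/+), 17 of the 24 were higher with a median of 0.033, and 1 had an unadjusted p under 0.05, where 50.4% of all genes were higher and 3.93% had such a p.

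Among 14 SCF and proteasome partners of Fbxo7, 9 were higher in Dot1l(fl/+), where 48.9% of all genes were, with a median of 0.069, and 0.051 with the length and GC offset. An unadjusted p under 0.05 was found for 3, all higher, where 4.3% of all genes were. These were Nedd8, the ubiquitin-like protein that activates cullins (0.19 ± 0.071, edgeR adjusted p = 0.541), and the proteasome subunits Psmb6 (0.2, edgeR adjusted p = 0.569) and Psmb7 (0.18, edgeR adjusted p = 0.568). Nedd8 was also the 1 gene of the list at that level in Dot1l(fl/fl) against Dot1l(+/+) (0.17, edgeR adjusted p = 0.999). Of 14 relatives of Uchl1 and ubiquitin genes, 7 lay above and 7 below 0 in Dot1l(fl/+), with a median of 0.01 that became 0.067 with the offset, and the ubiquitin-conjugating enzyme variant Ube2v2 was lower (-0.2 ± 0.066, edgeR adjusted p = 0.541). The ubiquitin gene Ubb was at 168.8 ± 33.7 CPM in Dot1l(+/+) and 129.5 ± 25.7 CPM in Dot1l(fl/fl) (-0.39, edgeR adjusted p = 0.999), and these groups overlapped.

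For the endosomal and lysosomal members, 0 of 19 Rab substrates and partners of Lrrk2 had an unadjusted p under 0.05 in Dot1l(fl/+) or in Dot1l(fl/fl) against Dot1l(+/+). Over all genes the shares were 8.39% and 3.93%. Rab8b, a Rab phosphorylated by Lrrk2, gave 0.17 (edgeR adjusted p = 0.733) between Dot1l(fl/fl) and Dot1l(fl/+). Of 20 retromer and WASH complex genes, 11 were higher and 9 lower in Dot1l(fl/+), where 48.9% of all genes were higher. An unadjusted p under 0.05 was found for 2, where 8.39% of all genes had one. The sorting nexin Snx1 was higher (0.16 ± 0.06, edgeR adjusted p = 0.541) and Vps26a, which binds Vps35 in the retromer, was lower (-0.14 ± 0.061, edgeR adjusted p = 0.583) in Dot1l(fl/+). The list median was 0.014 there and 0.044 in Dot1l(fl/fl), where 15 of 20 were higher and 0 had an unadjusted p under 0.05, against 50.4% and 3.93% of all genes.

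Among 15 relatives of Atp13a2 and polyamine genes, 7 were higher and 8 lower in Dot1l(fl/+), with a median of -0.018. An unadjusted p under 0.05 was found for 2 on the higher side (4.3% of all genes) and 1 on the lower side (4.09%). Atp13a3, a P5-type ATPase of the same family, was at 106.3 ± 2.71 CPM in Dot1l(+/+) and 94.6 ± 3.33 CPM in Dot1l(fl/+), without overlap (-0.17 ± 0.05, edgeR adjusted p = 0.541). The spermidine synthase Srm (0.22) and Oaz2, an antizyme that limits polyamine synthesis (0.18), both with an edgeR adjusted p of 0.541, were on the other side of 0. Of 23 lysosomal hydrolases and membrane proteins, 17 were higher in Dot1l(fl/+), where 48.9% of all genes were, with a median of 0.071, and 0.085 with the length and GC offset. At an unadjusted p under 0.05, 5 were higher (4.3% of all genes) and 0 lower. The cathepsins Ctsl (0.16 ± 0.059) and Ctsd (0.16 ± 0.064) and the hexosaminidase subunit Hexa (0.18 ± 0.066) were among them, with edgeR adjusted p of 0.541 to 0.557. In Dot1l(fl/fl) against Dot1l(+/+), 17 of the 23 were again higher, with a median of 0.028 and 0 at an unadjusted p under 0.05. Both comparisons use the same 3 control libraries. Microglia, the phagocytes of the brain, are rich in lysosomes, and 6 of their 8 markers were higher in Dot1l(fl/+) and 7 of 8 in Dot1l(fl/fl) than in Dot1l(+/+), where 48.9% and 50.4% of all genes were, with medians of 0.14 and 0.15. At an unadjusted p under 0.05, 1 and 2 of the 8 were higher, where 4.3% of all genes were higher at that level in the first comparison and 3.93% passed it in either direction in the second. Their summed level ranged from 350.6 to 367.7 CPM in Dot1l(+/+), from 351.5 to 419.9 CPM in Dot1l(fl/+) and from 385 to 414 CPM in Dot1l(fl/fl). The part of these cells in the lysosomal values was not tested.

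The 20 further genes linked to Parkinson disease split into 10 above and 10 below 0 in Dot1l(fl/+), with a median of -0.0005. Of them, 0 had an unadjusted p under 0.05, where 8.39% of all genes did. In Dot1l(fl/fl) against Dot1l(+/+) the list again split into 10 and 10, and 1 gene had an unadjusted p under 0.05, where 3.93% of all genes did. This was Gch1, which makes the cofactor of tyrosine hydroxylase and is a marker of monoamine neurons. It was lower, at 4.72 ± 0.584 CPM against 6.28 ± 0.443 CPM in Dot1l(+/+), without overlap (-0.4 ± 0.14, edgeR adjusted p = 0.999). The mitochondrial protein gene Chchd2 gave 0.12 (edgeR adjusted p = 0.689) in Dot1l(fl/+) against Dot1l(+/+) and -0.17 (edgeR adjusted p = 0.745) in Dot1l(fl/fl) against Dot1l(fl/+). No listed gene passed an adjusted p of 0.05 in any comparison with edgeR.

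**Figure D4:**
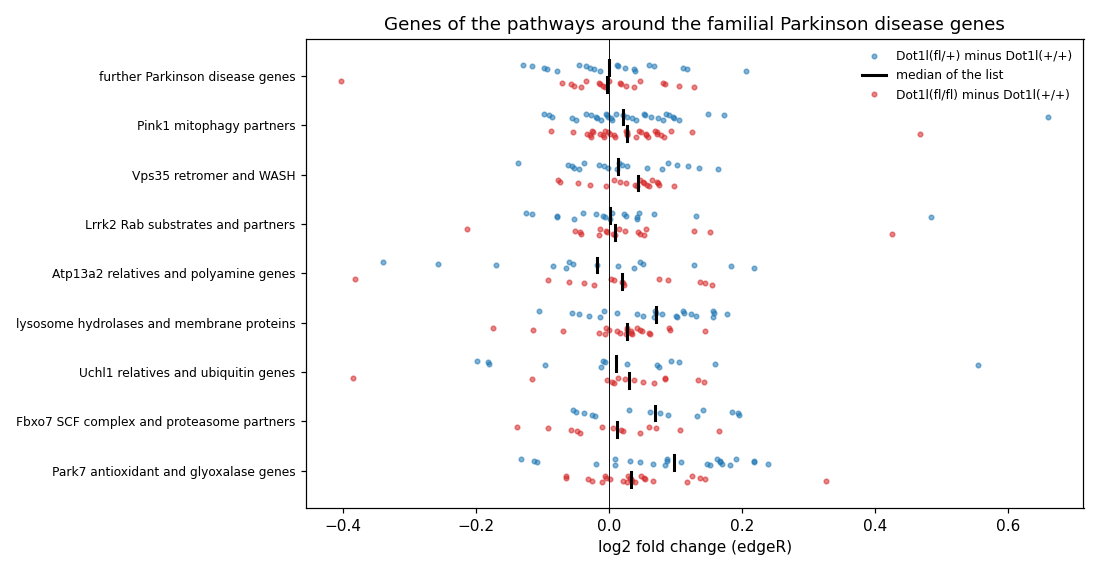
Log2 fold change (horizontal axis, edgeR) of every tested gene in the 9 pathway lists, with Dot1l(fl/+) against Dot1l(+/+) in blue and Dot1l(fl/fl) against Dot1l(+/+) in red, and the list median as a black bar. The lists of lysosomal, SCF and proteasome, and antioxidant genes have blue medians of 0.071, 0.069 and 0.098, and the other 6 lie between -0.018 and 0.021. With the length and GC offset, which is not plotted, the median of the Uchl1 relatives and ubiquitin genes was 0.067, above the 0.051 of the SCF and proteasome list.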

How the data were processed

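RNA-seq of dissected midbrain at 180 days comprised 9 libraries, 3 for each genotype. The authors deposited raw counts per gene, 1 file for each library (47729 rows, 0 without a gene name). The submitters' processing notes name bcl2fastq 2.17, Trimmomatic 0.30, DESeq2 1.10.1 and the build GRCm38.p4. The aligner, counter, strand setting and annotation release are not given in the sources used here. The 3 deposited tables of the authors' own comparisons (fold changes and p-values) were not used. The series text also mentions sorted embryonic cells, whereas the sample titles give 180 days and the extraction protocol describes a tissue dissection, and these labels were followed.

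Counts were tested with the quasi-likelihood test of edgeR 4.0.16 (R 4.3.3) over all 9 libraries with filterByExpr, TMM scaling (factors 0.988 to 1.01) and Benjamini-Hochberg adjustment over 17671 genes. The SE is the fold change over the root of the F statistic. Fits were tested on simulated data. RPKM used exon lengths of GENCODE M21, which matched 47310 rows. Alternatives were DESeq2 1.42.0, fits of 2 groups, other scaling and filters, a replicate block, an offset fitted to gene length and GC percentage by splines (df 4), and leaving out each library. Each library pools 3 mice. No 2 libraries of a genotype agreed within sampling noise (chi-square per degree of freedom of at least 4.47 in each of the 9 pairs, and of 15.2 and 16.5 for the pairs with replicate 2 of Dot1l(fl/+)).

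The members and gene lists were chosen with earlier results of these data known. Named were all 7 members, the 2 genes closest to each by Pearson's r, up to 4 genes of each pathway list with the smallest p among those with an unadjusted p under 0.05 in any comparison, Dot1l, and Th and Slc6a3 among the markers. Orc6 was added as an overlapping gene and the marker Pmch after its values were seen, and some genes that this rule names are not reported here.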

Additional observations from a re-analysis of the deposited data

How the results depend on the processing

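No member passed an adjusted p of 0.05 in any comparison under the 18 alternatives run, and Pink1, Uchl1, Park7 and Lrrk2 were higher in Dot1l(fl/+) than in Dot1l(+/+) under each of them. Counts of genes did depend on the tool and filter. At an adjusted p under 0.05, where edgeR over 9 libraries called 0 genes in Dot1l(fl/+) against Dot1l(+/+), in Dot1l(fl/fl) against Dot1l(+/+) and in Dot1l(fl/fl) against Dot1l(fl/+), DESeq2 on all 9 libraries called 7, 4 and 12, DESeq2 on the 2 groups compared called 46, 9 and 12, edgeR on 2 groups called 1 and 4 in the first 2 comparisons, and edgeR without a filter called 251, 118 and 164. At an unadjusted p under 0.05 the counts of 1483, 694 and 1145 became 450 in the second comparison with DESeq2 on all libraries, 942 in the first and 617 in the third with DESeq2 on 2 groups, and 1210 in the second and 1795 in the third without a filter. Leaving out 1 library gave 0 to 5, 0 to 4 and 0 to 12 genes at an adjusted p under 0.05, and 976 to 2235, 382 to 942 and 876 to 1752 at an unadjusted p under 0.05, the highest without replicate 1 of Dot1l(fl/+) in the first comparison and without its replicate 2 in the third. The causes were not tested.

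Members near 0 changed sign. In Dot1l(fl/fl) against Dot1l(+/+), the length and GC offset gave 0.016 for Lrrk2, -0.0043 for Park7 and 0.0026 for Atp13a2, and in Dot1l(fl/fl) against Dot1l(fl/+) it gave -0.081 for Vps35. Without 1 library, Dot1l(fl/fl) against Dot1l(+/+) ranged from -0.032 to 0.031 for Lrrk2, -0.071 to 0.057 for Park7, -0.101 to 0.0155 for Pink1, -0.075 to 0.0092 for Atp13a2 and -0.0023 to 0.14 for Uchl1. Dot1l(fl/+) against Dot1l(+/+) then ranged from -0.0298 to 0.0762 for Vps35, -0.013 to 0.042 for Atp13a2 and -0.00092 to 0.044 for Fbxo7, and Dot1l(fl/fl) against Dot1l(fl/+) from -0.018 to 0.088 for Vps35. The unadjusted p of Pink1 in Dot1l(fl/+) against Dot1l(+/+) was under 0.05 without 5 of the 9 libraries and that of Uchl1 without 6.

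The study's methods describe the pools as matched by nest across genotypes, without saying that the replicate number marks the matched pools. Same-numbered libraries deviated together with correlations of 0.0222 to 0.317, those of number 3 at 0.0222 to 0.0898. Between libraries of different numbers the correlations ran from -0.267 to 0.108. Not every library correlated best with its own number, so the number was used as a block only as an alternative. Within numbers, Pink1, Lrrk2 and Fbxo7 were higher in Dot1l(fl/+) than in Dot1l(+/+) in 3 of 3, Park7 and Uchl1 in 2 of 3, and Vps35 and Atp13a2 in 1 of 3. Against Dot1l(+/+), Dot1l(fl/fl) was lower for Fbxo7 and higher for Vps35 in 3 of 3, and against Dot1l(fl/+) it was lower for Pink1, Park7, Uchl1 and Fbxo7 in 3 of 3. With the number as a replicate block, 3 genes passed an adjusted p of 0.05 in each comparison of Dot1l(fl/fl), and Park7 gave -0.00031 in Dot1l(fl/fl) against Dot1l(+/+). The block together with the offset gave 3 and 4 genes there, 0.015 for Lrrk2, -0.0064 for Park7 and 0.0032 for Atp13a2 in Dot1l(fl/fl) against Dot1l(+/+), and -0.079 for Vps35 in Dot1l(fl/fl) against Dot1l(fl/+). No member's adjusted p passed 0.05 with the block. Added to the offset, it put the unadjusted p of Pink1 in Dot1l(fl/+) against Dot1l(+/+) under 0.05 (0.11, edgeR adjusted p = 0.649), beside those of Lrrk2 and Vps35. With 3 libraries a genotype, the 95% intervals of the members were wider than the differences seen, as for Lrrk2 in Dot1l(fl/+), at -0.027 to 0.27. Those that left out 0 were Pink1 and Uchl1 in Dot1l(fl/+) against Dot1l(+/+) and Pink1 in Dot1l(fl/fl) against Dot1l(fl/+), before adjustment over genes.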
